A study of Mus musculus with 12 samples.

Results

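The mouse genome carries many intronless copies of ribosomal protein genes. Such processed pseudogenes arose when the spliced mRNA of a gene was copied back into DNA and inserted elsewhere, and genes that are transcribed strongly in the germ line, ribosomal protein genes among them, have left many. Most lack a promoter of their own. Because they keep the coding sequence of their parent gene almost unchanged, a short read from an abundant ribosomal protein mRNA can match the parent and 1 or more copies, and the number given to each depends on how such reads were counted. In each name the part before "-ps" is the parent gene.

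The members described here were the rows of the deposited gene table whose symbol begins with Rpl or Rps and ends in "-ps" with or without a number, and whose mean value reached 1 over the 6 rod libraries or the 6 retina libraries. Of 56748 rows, 322 had such a symbol and 178 passed. Of the 144 that did not, 101 had no read in any library. The members were therefore chosen by their own level, which is given as a description. Just inside the threshold were Rpl30-ps11 (mean value 1.03 in rods and 0.817 in retina) and Rpl34-ps2 (1.05 and 0.967). Just outside it were Rpl19-ps3 (highest mean 0.983) and Rpl19-ps6 (0.967). The 178 belonged to 52 parent genes, 101 to proteins of the large ribosomal subunit and 77 to proteins of the small one. Rps12 had 15, Rpl21 had 11, Rpl31 and Rpsa had 9 each, and 14 parents had 1.

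The study removed Pkm2, the M2 isoform of pyruvate kinase encoded by Pkm, from rod photoreceptors. Mice that carried 1 floxed Pkm2 allele (Pkm2 Rodhet, labelled wt) served as control and littermates with both alleles floxed were the knockout (Pkm2 Rodko). Both groups expressed Cre from a rhodopsin promoter fragment (i75-Rod-Cre) and were homozygous for RiboTag, in which Cre switches the endogenous Rpl22, a large subunit protein, to an HA-tagged form, so the control was itself a Cre-positive heterozygote. Rod ribosomes were pulled down with anti-HA beads from cycloheximide-perfused retinas (Rod-TRAP, here rods), and RNA of the whole extract was sequenced beside them (input, here retina). There were 3 libraries in each of the 4 groups. The series text gives the animals' age as 2 weeks and the methods as 2 months.

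Library totals ran from 13458890 to 22790074 reads. The targeted gene behaved as its labels say: Pkm was at 52141, 51049 and 54504 in control rods and at 23751, 22553 and 22246 in knockout rods, a log2 difference of -1.20 ± 0.081 (SE, limma, adjusted p = 4.5787e-05), and fell in the retina too (-0.65 ± 0.073, adjusted p = 0.0175). All 10 rod markers were higher in rods than in retina (median log2 difference 1.91), while the medians of the bipolar, Müller and amacrine lists were -3.23, -2.97 and -3.11. The median of the cone list was -0.67. In the rods, 5 of 8 bipolar, 5 of 8 Müller and 4 of 7 amacrine markers were lower in the knockout (limma, unadjusted p under 0.05). The same held for 2 of 8 ganglion and 2 of 5 endothelial markers, and for 698 of all 19584 genes. It held for 0 of 6 cone, 0 of 5 pigment epithelium and 0 of 7 microglia markers. At an adjusted p under 0.05 there were 0 in each list. The part of these cells in the results below was not tested. In bulk libraries fewer cells of a type and less RNA per cell cannot be told apart. Ddx3y, a gene of the Y chromosome, had 0 reads in the 4 libraries of control numbers 1 and 2 and reads in the other 8, so this difference and genotype overlap in part and cannot be told apart for single genes. The labels do not say that the 3 libraries of a group came from separate animals, so p-values measure the spread between libraries, which may be technical.

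The sequences below show how little separates these copies from their parents, and they were chosen for the members that the results turn on. All 178 identifiers were found in GENCODE release M21 (build GRCm38), of which 166 were annotated as processed pseudogenes, 7 as transcribed processed pseudogenes and 5 as protein-coding, and 172 had a single exon. Each line is the stretch that aligns with the same 90 bases of the parent's coding sequence, 5′ to 3′, in lower case, with bases that differ from the parent in capitals. Positions count from 1 at the A of the parent's start codon. The parent's line is written without capitals.

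Rpl3 (chr15:80077791-80091868, minus strand), which lies next to the peptidyl transferase centre of the large subunit, has a pair of read-bearing copies on the X chromosome, Rpl3-ps1 (stretch at chrX:13203312-13203401, plus strand) and Rpl3-ps2 (chrX:74171395-74171484, plus strand). Over bases 741 to 830 both carry T786C.
Rpl3: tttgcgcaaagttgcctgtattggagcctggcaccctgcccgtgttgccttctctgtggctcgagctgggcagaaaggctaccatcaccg
Rpl3-ps1: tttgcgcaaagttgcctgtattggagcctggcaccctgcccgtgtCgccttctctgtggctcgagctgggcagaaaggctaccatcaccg
Rpl3-ps2: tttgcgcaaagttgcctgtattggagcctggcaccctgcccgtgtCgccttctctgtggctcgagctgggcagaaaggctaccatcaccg

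Over bases 141 to 230 of Rpl15 (chr14:18267823-18271391, minus strand), another large subunit protein, Rpl15-ps3 (chr9:22185992-22186081, minus strand) is identical to the parent and Rpl15-ps6 (chr15:52477999-52478088, minus strand) differs by A156G and C202A.
Rpl15: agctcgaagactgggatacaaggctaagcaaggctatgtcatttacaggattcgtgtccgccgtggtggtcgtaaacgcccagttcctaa
Rpl15-ps3: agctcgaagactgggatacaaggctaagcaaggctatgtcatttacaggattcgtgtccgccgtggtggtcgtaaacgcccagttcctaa
Rpl15-ps6: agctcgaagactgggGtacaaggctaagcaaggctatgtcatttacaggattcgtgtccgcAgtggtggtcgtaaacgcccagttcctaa

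Rps27a (chr11:29545846-29548109, minus strand) encodes ubiquitin fused to a small subunit protein. Rps27a-ps2 (chr9:83409990-83410079, plus strand) differs from its whole coding sequence by 1 base, A375G, shown over bases 331 to 420.
Rps27a: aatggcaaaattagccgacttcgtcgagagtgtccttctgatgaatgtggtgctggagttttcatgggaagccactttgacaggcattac
Rps27a-ps2: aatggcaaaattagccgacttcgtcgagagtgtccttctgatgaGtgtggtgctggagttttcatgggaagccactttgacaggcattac

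Rps10 (chr17:27630418-27636669, minus strand), a small subunit protein, is shown over bases 391 to 480 with Rps10-ps2 (chr16:20822161-20822250, minus strand) and Rps10-ps1 (chr3:95622668-95622757, plus strand), since reads fell on the copies and hardly on the parent.
Rps10: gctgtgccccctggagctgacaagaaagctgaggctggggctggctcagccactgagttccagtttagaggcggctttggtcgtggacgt
Rps10-ps2: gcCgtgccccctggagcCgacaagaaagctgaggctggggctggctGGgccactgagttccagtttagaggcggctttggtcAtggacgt
Rps10-ps1: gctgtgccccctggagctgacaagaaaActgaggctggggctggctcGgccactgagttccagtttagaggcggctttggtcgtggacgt

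Rpl36a-ps3 (chr6:136488807-136488896, plus strand) is named after Rpl36a (chrX:134585654-134588062, plus strand), yet over the first 90 bases it differs from Rpl36a at 14 positions and from Rpl36al (chr12:69182731-69184083, minus strand), a gene for a nearly identical large subunit protein, at 0. Capitals in both lines mark differences from Rpl36a.
Rpl36a: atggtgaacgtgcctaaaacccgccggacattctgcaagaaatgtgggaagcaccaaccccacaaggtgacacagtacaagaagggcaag
Rpl36a-ps3: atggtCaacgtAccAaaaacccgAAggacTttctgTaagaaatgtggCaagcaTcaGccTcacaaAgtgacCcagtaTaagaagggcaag
Rpl36al: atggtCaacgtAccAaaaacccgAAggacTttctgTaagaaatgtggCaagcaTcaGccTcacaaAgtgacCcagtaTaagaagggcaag

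Across the 178 members the median identity to the parent mRNA over the aligned stretch was 98.6%, 166 were at 95% or more, 14 were at 100% and 3 were under 90%. The alignment covered the parent's start codon in 162 members, and in 109 of these the frame that opened there ran at least as many codons as in the parent before a stop. Rpl10a-ps1 kept 217 of 217 codons and Rps6-ps4 249 of 249, whereas Rpl3-ps2 met a stop after 52 of 403 codons. The members lay on 20 chromosomes, 23 of them on X. Of the 178, 48 overlapped a protein-coding gene, 47 within an intron and 1 with an exon, 17 on the same strand and 31 on the opposite one. The strand setting of the counting is not given in the sources used here, so reads of a member and of an antisense host cannot be told apart.

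Among the members, copies that shared more sequence with their parent had more reads. Every stretch of 50 bases of a member was looked up in the transcripts of its parent and of all other genes. All such windows were in the parent for 12 members, and their median level was 758 deposited units per kilobase in rods and 856 in retina. Among the 38 members with some but at most 25% of windows in the parent, the medians were 7.60 and 6.74. In between, the median in rods was 30.4 for the 51 members with over 25% to 50%, 90.7 for the 41 with over 50% to 75% and 470 for the 30 with over 75% but not all.

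**Figure D1:**
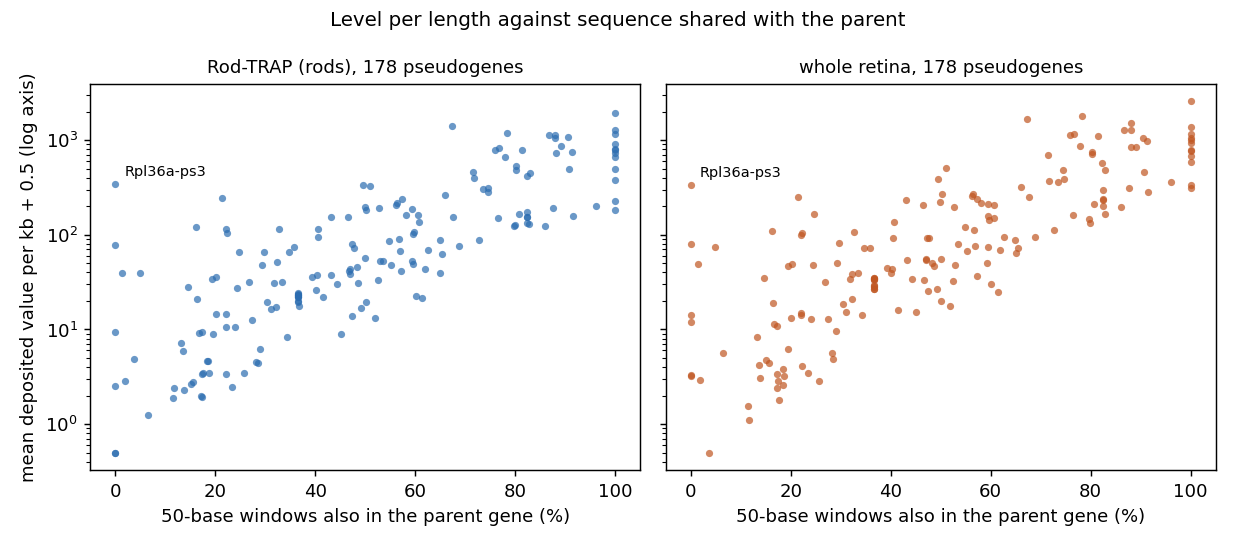
Each of the 178 points is a pseudogene; the horizontal axis is the percentage of its 50-base windows that also occur in its parent gene and the vertical log axis is its mean deposited value per kilobase plus 0.5, in rods (left) and retina (right). Levels rise with the shared percentage, and Rpl36a-ps3 lies above other copies with as few shared windows.

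Across the members Spearman's rho of the level per kilobase with the percentage of windows in the parent was 0.808 in rods and 0.816 in retina (n = 178), and with the percentage of windows found in no other gene it was -0.67 and -0.678. These points share libraries, parents and base composition, so the values are descriptions. The members were also chosen by their level, and the 144 copies that did not pass were not looked up. No window was unique in 31 members: every 50-base stretch of these copies occurs in at least 1 other annotated gene. For 91 members the gene ranked first by shared windows was not the parent after which they are named. Ties were broken by Ensembl identifier, so the parent of some of these may share as many windows. Rpl36a-ps3, an exception to the trend with its parent, had 0 windows in Rpl36a and 81.6% in Rpl36al, with 347 and 339 units per kilobase.

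Copies with one and the same sequence had levels near each other, though not equal. There were 4 sets of members identical over their whole annotated length, 14 members in all. Rps12-ps11, Rps12-ps12, Rps12-ps13, Rps12-ps14 and Rps12-ps15, all on X, had mean values in rods of 7.57, 8.57, 9.05, 8.85 and 8.93. Rpl35a-ps2, Rpl35a-ps3, Rpl35a-ps4 and Rpl35a-ps6, on 4 different chromosomes, had 58.0, 50.9, 50.7 and 44.5 in rods. In retina the same copies were farther apart, at 99.9, 79.5, 78.2 and 67.6. Rps19-ps1 and Rps19-ps2 had 16.7 and 19.0 in rods. These sets were picked after their values were seen.

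Reads were concentrated on few members. The 12 with the most reads held 39.9% of all member reads and the first 50 held 84.1%, and 152 members had reads in all 12 libraries. Mean values in rods were 100 or more for 50 members and 10 or more for 124; in retina the counts were 55 and 139. In order of reads the first 12 were Rpl3-ps1, Rpl14-ps1, Rpl7a-ps11, Rps6-ps4, Rpl10a-ps1, Rpl21-ps15, Rpl9-ps4, Rpl9-ps6, Rpl23a-ps3, Rps27a-ps2, Rpl17-ps10 and Rpl17-ps3, 10 of large subunit proteins and 2 of small. Per kilobase the highest of all was Rpl38-ps2, identical to its parent, at 1915 in rods and 2576 in retina.

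**Figure D2:**
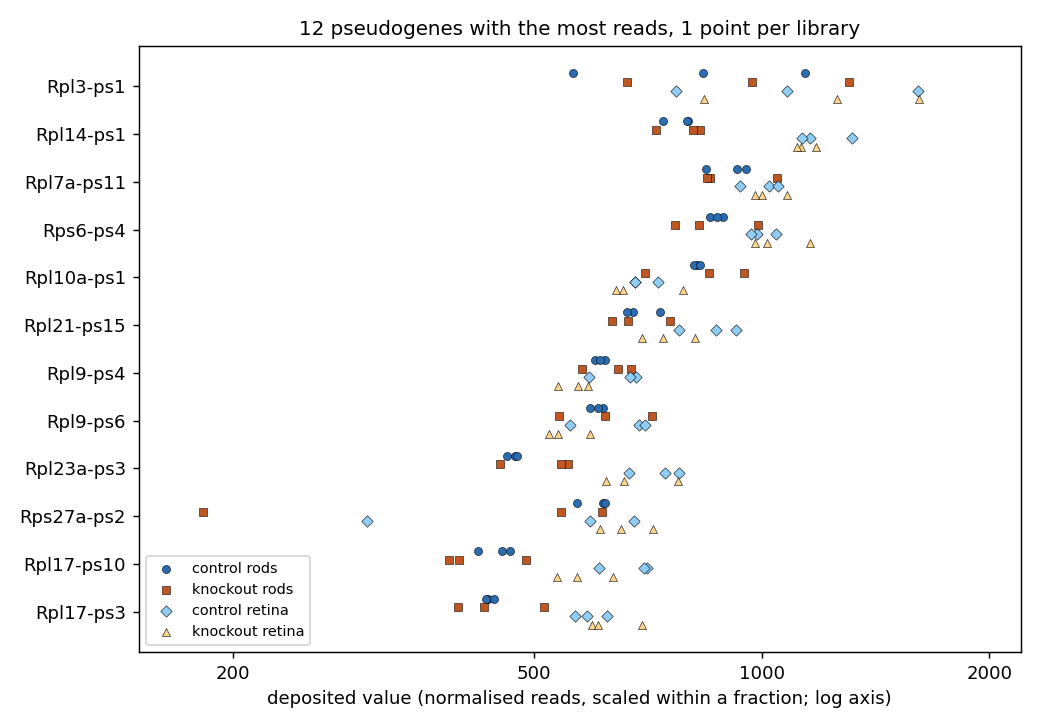
Deposited values (normalised reads, log axis) of the 12 pseudogenes with the most reads, 1 point per library and 3 libraries per group; values were scaled within rods and within retina, so only points of one fraction share a scale. Control and knockout points of a fraction overlap in each row, except that the retina knockout points of Rpl9-ps4 lie below its control points. Rpl3-ps1 spreads widely within each group, and Rps27a-ps2 has 1 low knockout rod library (182.5) and 1 low control retina library (300.5).

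Rpl3-ps1, with the most reads of all, was at 1143.1, 562.5 and 835.5 in control rods and at 663, 971.1 and 1303.8 in knockout rods, a wider spread within each genotype than between them. Rpl7a-ps11, a copy of another large subunit gene, was tighter, at 953.4, 844.1 and 929.2 against 1049.2, 855.4 and 847.6. Rpl14-ps1, whose parent encodes a large subunit protein, was at 740.7, 800.3 and 796.1 in control rods and at 829.2, 811.4 and 725.6 in knockout rods. Its reads were 34.5% to 38.4% of those of Rpl14 in the 6 rod libraries and 35.8% to 40.5% in the 6 retina libraries, so the groups overlapped. Rps6-ps4, a full-length match to Rps6, the small subunit protein phosphorylated by S6 kinase, had between 17.6% and 21.6% of its parent's reads in every library. Rpl10a-ps1, likewise identical to Rpl10a over its whole length, had 14.8% to 17.6%.

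The pseudogenes together took an almost constant share of ribosomal protein reads. Of the reads of the 178 members and their 52 parents, the members held 14.1% ± 0.401 (SD, n = 3) in control rods, 14.2% ± 0.546 in knockout rods, 13.7% ± 0.344 in control retina and 13.9% ± 0.209 in knockout retina. All 12 libraries lay between 13.4% and 14.7%. The ratio of knockout to control was 1.006 in rods and 1.008 in retina, and the ratio of rods to retina was 1.028; no test was made on this sum. As a share of all reads, the members were at 0.105% to 0.125% in rods and 0.129% to 0.149% in retina, a ratio of 0.831.

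**Figure D3:**
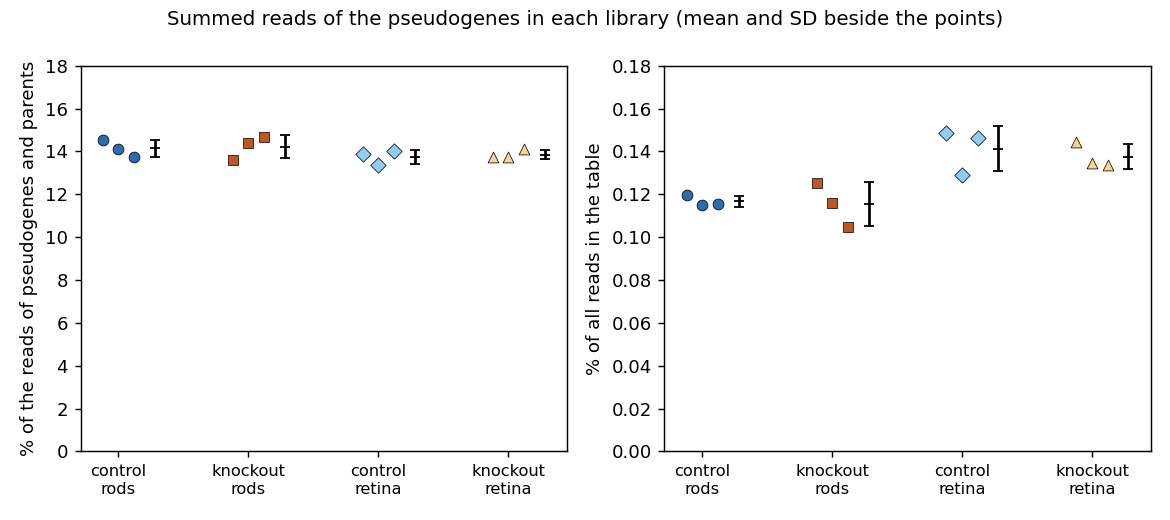
Summed reads of the 178 pseudogenes in each library as a percentage of the reads of pseudogenes and parents (left) and of all reads (right); points are libraries, 3 per group, and bars are the mean and SD. On the left every library lies between 13.4% and 14.7%, and on the right the 6 rod libraries lie below the 6 retina libraries.

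The first comparison asks whether loss of Pkm2 in rods changed the pseudogenes. In limma with Benjamini-Hochberg adjustment over all genes, 0 of the 169 members tested in rods and 0 of 172 in retina passed an adjusted p of 0.05; over all genes 0.0204% passed in rods and 0.00413% in retina. At an unadjusted p under 0.05 there were 0 members in rods, where 4.92% of all genes passed, and 2 in retina, or 1.16%, where 4.17% passed. Tests on the recovered reads with edgeR and with DESeq2 also gave 0 members at an adjusted p under 0.05 in either fraction, and 1 and 0 in rods and 5 and 1 in retina at an unadjusted p under 0.05. Control and knockout libraries did not overlap for 6 members in rods (3.55%, against 10.1% of all genes), 3 with the knockout below (5.57% of all genes) and 3 above (4.51%). In retina it was 13 (7.56%, against 9.43%), 5 below (4.8%) and 8 above (4.63%). The median log2 difference of the members was 0.04 in rods and 0.01 in retina, beside 0.01 and -0.004 for all genes and 0.004 and -0.05 for the parents, of which 0 of 52 passed an adjusted p of 0.05 (0 in rods and 4 in retina at an unadjusted p under 0.05).

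In retina the smallest p-values belonged to copies of a pair of large subunit genes. Rpl34-ps1 was at 311.7, 263.2 and 256.5 in control and 195.2, 239.7 and 201.2 in knockout retina, and the groups did not overlap (log2 difference -0.39, limma adjusted p = 0.981). Rpl36-ps2 was at 27.3, 17.1 and 24 in control and 41.1, 36.2 and 32.0 in knockout, again without overlap (0.67, limma adjusted p = 0.981). Both passed only before adjustment. In rods the smallest belonged to Rpl15-ps1 and Rps15a-ps5. Rpl15-ps1 had 10, 3 and 0 reads in control rods and 0 in the other 9 libraries, where a count of 0 allows up to 3 reads in a library, and Rps15a-ps5 was at 2.6, 1.5 and 1.2 in control and 7.1, 4.3 and 3.2 in knockout rods (1.06, limma adjusted p = 0.958). Neither passed, adjusted or not.

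Relative to their parents the members did not differ by genotype beyond the replicate spread either. Of 132 members with 10 or more mean reads, 0 had a ratio to the parent that passed an adjusted p of 0.05 in rods or in retina, as for 0% of the 283 pairs of all pseudogene families, and the numbers at an unadjusted p under 0.05 were 5 and 8 (limma; 4.24% and 6.71% of all pairs). The genotype effect in rods minus that in retina passed for 0 of 170 members and for 0% of all genes, with 0 members at an unadjusted p under 0.05 (limma; 4.26% of all genes). Rps6-ps3 and Rpl10-ps3 lay on the chromosome of Pkm, 5.97 and 9.31 Mb from it. In rods Rps6-ps3 was at 149.9, 152.5 and 130.6 in control and 182.5, 142.6 and 125.9 in knockout, and the groups overlapped (log2 difference 0.04). The difference of Rpl10-ps3 was 0.03. Rpl22-ps1, a copy of the gene that carries the HA tag, had mean values of 1 or more in retina only, with values of 0.0 to 2.1 in rods, while Rpl22 was at 1958.1 to 2637.8 there.

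The second comparison sets rods against retina. Here libraries were scaled by TMM over all 12, since the deposited values were scaled within each fraction. Of the 163 members at a mean of 1 or more in both fractions, 50 were higher in rods and 1 was lower (limma, adjusted p under 0.05); of all 22423 genes 31% were higher and 44.7% lower. All genes of this fit needed only a mean of 1 or more over all 12 libraries. Unlike these members, they include genes that are low in 1 fraction. The median log2 difference was 0.24 for the members, 0.17 for their parents and -0.29 for all genes. The direction depends on the scaling: with total reads alone 1 member was higher and 50 lower, the medians moving to -0.29 for members, -0.40 for parents and -0.81 for all genes. Under TMM, RLE and total reads the members' median was above that of all genes. The rod and retina libraries did not overlap, with all 6 rod libraries above, for 24 members (24.5% of all genes), and with all 6 below for 0 (31.6%). Of these 163, 34 of 90 large subunit members were higher and 0 lower (median 0.36), and of 73 small subunit members 16 were higher and 1 lower (median 0.22); the difference between them was not tested. Among all listed genes for cytosolic ribosomal proteins, 41 of 86 were higher and 8 lower, with a median of 0.17. edgeR on the same reads called 46 members higher and 1 lower.

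Most members called higher had a parent called higher. Of the 50 members higher in rods, 46 had a parent that was also higher at an adjusted p under 0.05, 0 had one that was lower and 4 had one that did not pass. These 50 belonged to 23 parents, so copies of 1 parent are counted more than once. Of all 52 parents, 24 were called higher and 6 lower, so many calls would match without a link. The sign was the same in member and parent for 128 of 163. The difference was positive for 132 of these members and for 40 of the 52 parents, so many signs would match without a link. Pearson's r of the log2 differences of member and parent was 0.474. Reads of a copy and its parent cannot be separated with certainty. Rpl10a-ps1 was at 862 to 1178 TMM-scaled reads (median 1025) in the 6 rod libraries and at 521 to 643 (median 555) in the 6 retina libraries, with no overlap (0.85 ± 0.079 SE, limma adjusted p = 8.5282e-08). Its parent Rpl10a, a protein of the L1 stalk, moved by 0.81 ± 0.056. Of the other members of the first 12, Rpl9-ps4 and Rpl9-ps6 were at 0.64 each beside 0.60 for Rpl9, and Rpl7a-ps11 at 0.45 beside 0.44 for Rpl7a.

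**Figure D4:**
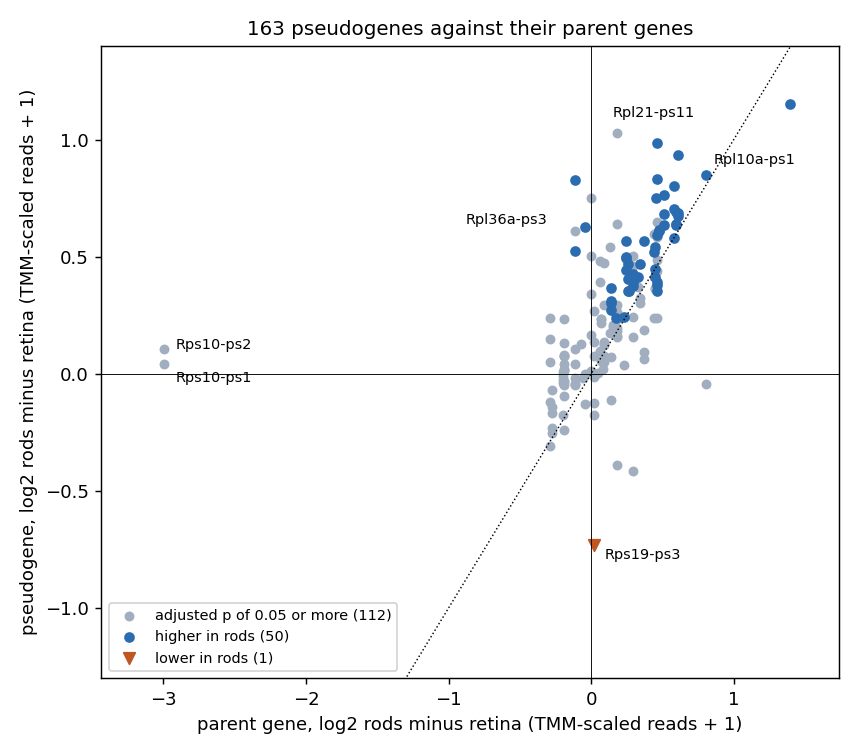
Log2 difference of rods minus retina (TMM-scaled reads plus 1) of 163 pseudogenes on the vertical axis against that of their parent genes on the horizontal axis; the dotted line marks equal values, and colours mark the limma call at an adjusted p of 0.05. Member and parent have the same sign for 128 points, Rps10-ps1 and Rps10-ps2 lie far to the left, at -2.99 for Rps10, and Rps19-ps3 is the only member called lower.

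Among members with 10 or more mean reads in each fraction the highest differences were those of Rpl21-ps11 (0.99 ± 0.238 SE), Rpl10a-ps1, Rpl31-ps11 (0.83 ± 0.294), Rpl7-ps9 (0.80 ± 0.192) and Rpl19-ps1 (0.77 ± 0.226), all called by limma. Rpl21-ps11 was at 20.4 to 38.4 TMM-scaled reads (median 31.2) in rods and 11.2 to 18.4 (median 13.9) in retina, without overlap. Rpl31-ps11 rested on 13.8 to 30.6 against 7.2 to 14.7 and overlapped. Without control rod replicate 2, or without ko rod replicate 2, Rpl31-ps11 no longer passed (0.64 and 0.72). The lowest were Rps19-ps3 (-0.73 ± 0.181), Rpl36-ps9 (-0.41), Rpl10-ps6 (-0.25), Rpl10-ps3 (-0.23) and Rps19-ps7 (-0.18), of which Rps19-ps3 alone passed. It was at 25.2 to 41.5 TMM-scaled reads (median 37.0) in rods and 40.2 to 70.6 (median 56.9) in retina, a small overlap, and its parent Rps19 was at 0.02. With the library number as a block, Rpl10-ps3 (adjusted p = 0.0235, limma) and Rpl10-ps6 (adjusted p = 0.0376) passed too, making 3 lower (45.7% of all genes) and 50 higher (31.7%); their parent Rpl10 was at -0.27.

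The ratio of a member to its parent needs no scaling between libraries, and asks whether a copy moved apart from the gene after which it is named. Of 132 members tested, 4 had a higher ratio in rods than in retina and 0 a lower one (3.03%; limma, adjusted over the 283 pairs of all pseudogene families, of which 4.59% passed, 3.18% higher and 1.41% lower). The median difference in log2 ratio was 0.10 for the members and 0.09 for all pairs, and the quartiles of the members were 0.03 and 0.21.

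Rps10-ps2 and Rps10-ps1 stood farthest out, through their parent. Rps10 had 0 to 4 reads in the 6 rod libraries and 19 to 42 in the 6 retina libraries, while Rps10-ps2 had 322 to 549 and 457 to 745 and Rps10-ps1 76 to 111 and 100 to 170. The difference in log2 ratio was 3.36 ± 0.446 (SE, limma adjusted p = 0.000581) for Rps10-ps2 and 3.30 ± 0.444 (adjusted p = 0.000581) for Rps10-ps1. Neither copy itself differed between rods and retina beyond its error (0.11 and 0.04, adjusted p = 0.298 and 0.822 in limma), whereas Rps10 did (-2.99 ± 0.357, adjusted p = 1.5644e-06). In GENCODE release M21, 20.6% of the exonic bases of Rps10 are shared on the same strand with a read-through gene that joins Rps10 to Nudt3. The other exonic bases of Rps10 are not shared in this way, and the authors' build differs. Of the 50-base windows of Rps10-ps2 and Rps10-ps1, 76.7% and 50.2% were in Rps10. How reads in shared exons or windows were assigned is not given in the sources used here. Whether either bears on the low reads of Rps10 was not tested.

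Relative to the gene in its name, Rpl36a-ps3 rose most clearly. Its reads were 17.2% to 20.8% of those of Rpl36a in the 6 rod libraries and 9.07% to 13.5% in the 6 retina libraries, with no overlap (0.68 ± 0.079 SE, limma adjusted p = 0.000226). It was at 115 to 157 TMM-scaled reads in rods and 78.3 to 105 in retina, while Rpl36a was at -0.05 and did not pass. Rpl36a holds 0 of the windows of Rpl36a-ps3, so this ratio is not one to the gene that the copy matches. Rpl36al, whose sequence Rpl36a-ps3 shares, had 11 to 20 reads in rods and 6 to 21 in retina. A ratio to Rpl36al was not tested. Rpl15-ps3, identical to Rpl15 over its length, had 21.1% to 23.2% of the reads of Rpl15 in rods and 17.0% to 19.4% in retina (0.26 ± 0.041, limma adjusted p = 0.00250), also without overlap. All its windows are in Rpl15, so reads of the 2 cannot be separated with certainty. With the library number as a block, the other Rpl15 copies tested had positive differences too. They were 0.25 for Rpl15-ps6, 0.36 for Rpl15-ps5 and 0.21 for Rpl15-ps2, of which Rpl15-ps6 alone passed.

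The lowest ratio was that of Rps19-ps3, a copy of the small subunit gene Rps19 with 62.9% of windows in no other gene. It had 1.20% to 2.50% of the reads of Rps19 in rods and 2.12% to 4.37% in retina, and the groups overlapped through 1 library (-0.75 ± 0.199, limma adjusted p = 0.0506). Without ko rod replicate 3, or without control retina replicate 1, the ratio passed (-0.90 and -0.87). Rpl36-ps9 (-0.70, adjusted p = 0.171 in limma), Rps15-ps3 (-0.19) and Rps19-ps7 (-0.18) were also low and did not pass, and neither did Rpl31-ps11 (0.99, adjusted p = 0.106) or Rpl31-ps9 (0.65, adjusted p = 0.162) at the other end. With the library number as a block Rpl31-ps11 (adjusted p = 0.0414, limma) and Rpl15-ps6 (0.25, adjusted p = 0.0363) passed too.

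Several copies kept a level of their own across both libraries with the same genotype and number. Deviations from the group means correlated at 0.274 to 0.556 in all 6 such rod and retina pairs and at -0.473 to -0.04 in the 12 pairs with other numbers, over 12662 genes. Deviations within a group cancel, so positive values for equal numbers pull the other pairs negative. A limma F test of the library number within genotype, added after the data were seen, passed for 5 of 170 members (2.94%; 2.07% of all genes). They were Rpl3-ps1, Rpl3-ps2, Rpl30-ps9, Rpl30-ps10 and Rpl15-ps6, of which 4 lie on X, as do 21 of the 170 tested. On the ratio to the parent 6 of 132 passed (4.55%), these 5 and Rpl15-ps2, against 2.47% of all pairs, the members included, and 1 of the 151 pairs of other families (0.662%); the difference between members and other families was not tested. By level the share of members was near that of all genes, and what follows describes these copies only.

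Rpl3-ps1 had 18.5%, 8.88% and 13.3% of the reads of Rpl3 in control rods 1 to 3 and 19.3%, 8.80% and 13.3% in control retina 1 to 3. In the knockout it had 9.93%, 17.1% and 25.4% in rods and 9.02%, 16.9% and 21.9% in retina (F = 63.9, limma adjusted p = 1.8e-06). Each rod library was thus close to the retina library of the same number, while numbers differed from 8.88% to 25.4% in rods. Rpl3-ps2 gave nearly the same order, with control 2 and knockout 1 exchanged in rods, from 1.70% to 5.56% in rods and 1.51% to 5.72% in retina (F = 39.1, adjusted p = 3.83e-05). The reads of Rpl3 and its copies together ran from 383 to 439 RPM, which scales reads to the library total, in rods and from 521 to 591 in retina, and the copies' part of them from 9.75% to 23.6% and from 9.35% to 21.7%.

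Rpl30-ps9 and Rpl30-ps10 are copies of Rpl30, another large subunit gene. Rpl30-ps9 was lowest in knockout 2, at 0.637% of the reads of Rpl30 in rods and 0.658% in retina, and highest in control 1, at 8.01% and 5.22% (F = 25.4, limma adjusted p = 0.000422). Rpl30-ps10 was also lowest in knockout 2 (0.892% and 1.01%) and highest in control 1 (7.66% and 3.49%; F = 11.4, adjusted p = 0.0158). Rpl15-ps6 had 9.91%, 18.2% and 19.0% of the reads of Rpl15 in control rods and 8.17%, 13.1% and 15.3% in control retina. In the knockout it had 10.1%, 10.2% and 15.4% in rods and 9.49%, 8.93% and 13.8% in retina (F = 13.5, adjusted p = 0.00874). Rpl15-ps3, with the same parent and no base difference in the coding sequence, stayed within 21.1% to 23.2% in rods. 3 of the 5 lost their call when a number was left out (limma). Without knockout number 2 the adjusted p was 0.0664 for Rpl30-ps9 and 0.149 for Rpl30-ps10, and without knockout number 3 it was 0.0758 for Rpl30-ps10. For Rpl15-ps6 it was 0.161 without control number 1 and 0.0606 without control number 3. Rpl3-ps1 and Rpl3-ps2 passed without each of the 6 numbers in turn.

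**Figure D5:**
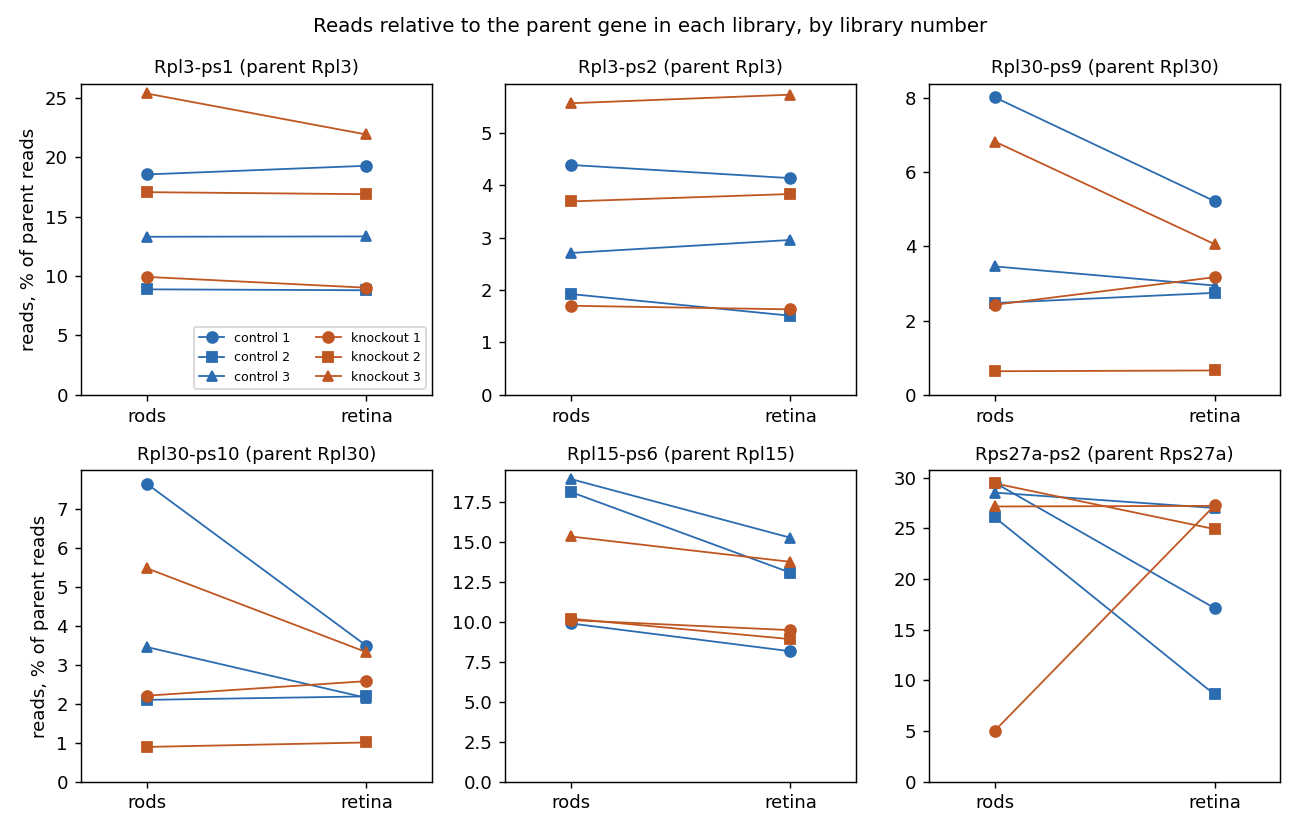
Reads of 6 pseudogenes as a percentage of the reads of their parent gene in rods and retina; a line joins the rod and retina libraries of the same genotype and number, blue for control and orange for knockout, and each panel has its own vertical scale from 0. Lines of Rpl3-ps1 run nearly level from 8.88% to 25.4% in rods, whereas lines of Rps27a-ps2 cross.

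Rps27a-ps2 varied without regard to the number. It had 26.1% to 29.5% of the reads of Rps27a in 5 rod libraries and 5.03% in knockout rods 1, and 24.9% to 27.3% in 4 retina libraries, 17.1% in control retina 1 and 8.60% in control retina 2. Rps27a-ps3 was low in the same 3 libraries, at 7.69%, 11.6% and 8.51%, against 15.4% to 18.6% in the other 9. Rps27a itself was highest of its fraction there, with 210 RPM in knockout rods 1 against 114 to 131 in the other rod libraries, and 198 and 196 in control retina 1 and 2 against 134 to 148. The F test gave an adjusted p of 0.344 for Rps27a-ps2 (limma), and what sets these 3 libraries apart was not tested.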

How the data were processed

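Libraries were made from polyA RNA of rod ribosome pulldowns and whole retinas. The values in the table that the authors deposited are normalised signal: reads per gene divided by 1 size factor per library, set within the 6 libraries of a fraction and rounded to 1 decimal. The submitters' processing notes name CASAVA 1.8.2, HISAT2, DESeq2 and edgeR and build GRCm39, with no role. The counter, the annotation, the strand setting and the treatment of multiply mapped reads are not given in the sources used here, and they decide how reads of near-identical copies were split. Reads of a pseudogene and its parent are therefore uncertain.

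Whole reads were recovered from the steps of the values (99.996% whole within 0.05 of a read). Genotype was tested with limma 3.58.1 (trend) on log2(value + 1) of genes with a mean of 1 or more in a fraction; fold changes on this scale understate those of low genes. Rods against retina and the interaction used log2(TMM-scaled reads + 1) over 12 libraries and 4 group means. Ratios to the parent were log2 of reads with 0.5 added to both, for pairs of all pseudogene families with 10 or more mean reads. P-values were adjusted by Benjamini-Hochberg over all features of a fit. As alternatives, the recovered reads were tested with DESeq2 1.42.0 and with edgeR 4.0.16. Scripts were tested on simulated data. Library numbers paired rods with retina of a genotype (correlation over 0.1 in every pair) but not control with knockout.

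Members were aligned to parents with Biopython 1.88 on GENCODE M21 transcripts (GRCm38) by Ensembl identifier; the authors' build differs, so coordinates are those of GENCODE. The members, lists and tests were chosen with earlier results of these data known. Named were the 12 members with most reads, the 5 highest and 5 lowest in rods against retina and in the ratio, the 2 smallest p-values of each genotype comparison, those at the threshold and those within 10 Mb of Pkm, with their parents; Rpl3-ps2, Rpl30-ps9, Rpl30-ps10, Rpl15-ps6, Rps27a-ps3, Rpl38-ps2 and the identical sets were added after their values were seen. A count of 0 was taken to allow 3 reads, and such limits cover counting error only. Some values and sequences are not reported here.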

Additional observations from a re-analysis of the deposited data

How the results depend on the processing

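Genotype calls were 0 members in rods and 0 in retina with edgeR, DESeq2, a pseudocount of 0.1, no filter, a filter in either genotype, 1 fit of 12 libraries and each library left out (0 to 0 in each direction). At an unadjusted p under 0.05, leaving out a library gave 0 to 5 members in rods and 1 to 12 in retina, the 12 without control retina replicate 3 and 7 without ko retina replicate 1. The ratio to the parent by genotype also kept 0 calls when a library was left out. With the replicate block, which pairs control with knockout by number only, the counts also stayed at 0 in both fractions, and so did the interaction with its replicate block. For rods against retina (50 higher, 1 lower), RLE scaling gave 37 higher and 3 lower, total reads 1 higher and 50 lower, control libraries alone 29 higher and 0 lower, knockout libraries alone 24 higher, and the replicate block 50 higher and 3 lower. Leaving out a library gave 39 to 57 higher and 1 to 3 lower, the 3 without ko rod replicate 1 and 2 lower without control rod replicate 3. Rpl15-ps3 turned from 0.498 to -0.0684 with total reads alone; by construction this scale moves every gene of a library together, and the median of all genes went from -0.29 to -0.81. For the ratio to the parent (4 higher, 0 lower), leaving out a library gave 4 to 5 higher and 0 to 1 lower, and an alternative chosen after seeing the data, parents with 100 or more mean reads, gave 2 higher because it removes both Rps10 pairs. Rpl15-ps3 did not pass in control or knockout libraries alone (0.34 and 0.17). The share of members had ratios of rods to retina of 1.02 to 1.04, of knockout to control in rods of 0.99 to 1.03 and in retina of 0.994 to 1.02 when a library was left out, and 0.831 for rods to retina with all reads as denominator. The test of library number, added after seeing the data, gave 3 to 5 members when a number was left out, 3 without ko replicate 2. Members with few reads, such as Rpl15-ps1 with 13 in all, limit what could be seen at this depth.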
